A study of Mus musculus with 8 samples.

Results

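The 10 genes described here (Pparg, Cebpa, Cebpb, Cebpd, Fabp4, Adipoq, Lpl, Plin1, Cd36 and Cfd) belong to the program by which a precursor cell becomes a fat cell, and they were taken by their symbols from the 51822 symbols measured in mouse osteoblast progenitors. The cells, MC3T3-E1 (an osteoblastic line) by the sample labels and cultured calvarial cells by the methods, were grown in α-MEM with 10% serum, ascorbic acid, 10 nmol/L dexamethasone and 10 mmol/L β-glycerophosphate, an osteogenic medium common to every group. They received the vehicle DMSO (control) or LAMZ (locamidazole, an aminoindazole derivative) at 1 μmol/L and were harvested at day 7 or day 14, with 2 RNA-seq libraries in each of the 4 groups. The comparisons ask how LAMZ changed these genes at each day, and how they moved between the days in each culture. Whether the 2 libraries of a group came from separate cultures is not given in the sources used here, so the p-values measure only the spread between these samples.

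Osteoblasts and adipocytes arise from a common mesenchymal progenitor, and dexamethasone is also part of the usual adipogenic mixtures. In the textbook order, the early factors C/EBPβ and C/EBPδ (Cebpb, Cebpd) induce PPARγ and C/EBPα (Pparg, Cebpa), which maintain each other and drive the genes of the lipid-filled cell. Those include lipoprotein lipase (Lpl) and the fatty acid translocase CD36 for uptake, the fatty acid carrier FABP4, the lipid droplet coat perilipin 1 (Plin1) and the secreted proteins adiponectin (Adipoq) and adipsin (Cfd). Several of these genes are not restricted to fat cells. Macrophages, for example, are also known to express Lpl, Cd36 and Cebpa, and that list is not complete.

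Levels are RPKM, reads scaled by transcript length and by the depth of the library, so that genes of different length can be compared. The libraries held 3463538 to 5832073 mapped reads, recovered from the steps between low values, and the reads of each gene given below come from the same calculation. Differences were tested in limma on log2(RPKM + 1) over the 12514 genes at an RPKM of 1 or more in at least 2 libraries, and a gene was called at an adjusted p (Benjamini-Hochberg) below 0.05. Differences on this scale understate the change of low genes. Of the 10 genes, 9 were tested and Plin1 was not, and 4 of the tested genes (Fabp4, Adipoq, Cd36 and Cfd) passed the filter through their control libraries alone, so the number of calls is a description of the list. Counts at an unadjusted p below 0.05 were not set against their share over all tested genes, so they too only describe a list. The summed RPKM of 10 osteoblast markers was 7123 to 8734 in day 7 control and 9322 to 9644 with LAMZ, and 10339 to 10850 in day 14 control and 14489 to 16442 with LAMZ. Of these markers 6 were called higher with LAMZ and 0 lower at each day, with a median difference of 0.87 at day 7 and 0.78 at day 14. Over all tested genes, 4.35% were called higher at day 7 and 6.96% at day 14. Macrophage markers, of which 17 of 18 listed were measured, summed to 482 to 635 in day 7 control, 1213 to 1229 in day 14 control and 7.36 to 9.43 in the LAMZ libraries. Fewer cells of a type and less RNA per cell cannot be told apart in such bulk samples.

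Promoter windows of the 250 bases before a RefSeq start (GRCm38.p6) were used for 7 of the 10 genes, in 9 windows because Pparg has 3 starts, and no window was used for Fabp4, Lpl and Cebpd. Each was searched on both strands for TTGCNNAA, the core bound by C/EBP factors, and for AGGTCA, the core of the elements bound by PPAR with RXR. Some of the windows with a match are shown, the first of them at the start of the Pparg transcript that is selective for fat cells. The first and second Pparg windows, which also held a match, are not shown. The Pparg and Cd36 windows shown lie inside the spans of their genes given below, and the Plin1 window overlaps the span of its gene in part. The capitals mark the matches, and the sequences run on the strand of the gene.
Pparg, last of the 3 starts (chr6:115421816-115422065, plus strand): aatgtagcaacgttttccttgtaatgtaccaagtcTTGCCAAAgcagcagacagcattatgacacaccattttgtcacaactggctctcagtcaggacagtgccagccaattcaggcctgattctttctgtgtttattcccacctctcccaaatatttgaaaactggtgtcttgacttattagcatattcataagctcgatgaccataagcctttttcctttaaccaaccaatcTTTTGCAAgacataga
Plin1 (chr7:79732777-79733026, minus strand): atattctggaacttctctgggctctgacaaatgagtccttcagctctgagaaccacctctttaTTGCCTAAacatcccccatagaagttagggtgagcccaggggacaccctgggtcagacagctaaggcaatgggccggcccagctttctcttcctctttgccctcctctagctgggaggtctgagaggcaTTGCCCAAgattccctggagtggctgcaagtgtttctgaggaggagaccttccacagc
Cd36 (chr5:17835897-17836146, minus strand): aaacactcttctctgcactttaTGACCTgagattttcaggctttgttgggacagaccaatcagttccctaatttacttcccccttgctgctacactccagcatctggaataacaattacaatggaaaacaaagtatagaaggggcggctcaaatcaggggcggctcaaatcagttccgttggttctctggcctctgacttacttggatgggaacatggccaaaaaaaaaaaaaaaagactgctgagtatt

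The last Pparg window held 2 matches to TTGCNNAA, the first base of which lay 215 and 16 bases before the start, and Plin1 held 2 at 187 and 58 bases. This motif occurred in 9.56% of the 32851 windows of the same length in RefSeq. AGGTCA, found in 14% of those windows, occurred on the opposite strand of Cd36 at 228 bases and in the first and second Pparg windows at 28 and 9 bases. The windows of Adipoq, Cfd, Cebpa and Cebpb held neither core, and no window held both motifs. A match is a stretch of letters and does not show that a factor was bound.

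LAMZ lowered Lpl, Cd36 and Cebpa at both days, and lowered Fabp4 and Adipoq at day 14. At day 7, 3 of the 9 tested genes were lower (8.49% of all tested genes were) and 0 were higher (4.35% of all), and at an unadjusted p below 0.05 limma gave 6 lower and 0 higher. At day 14, 5 were lower (16% of all tested genes) and 0 were higher (6.96% of all), with 6 lower and 0 higher at an unadjusted p below 0.05. Over all tested genes 1063 were lower and 544 higher at day 7, which became 745 and 857 with libraries centred on their medians and 3280 and 312 with libraries rescaled to the same sum. At day 14 the 2007 lower and 871 higher genes became 1249 and 1608 when centred and 5323 and 473 when rescaled, and the median difference of all tested genes was −0.15. The heading of day 7 LAMZ replicate 1 in the files is unlike its sample title, and without that library the same 3 genes were called at day 7. The 3 genes lowered at day 7 were all among the 5 lowered at day 14. Among the transcription factors of the list, Cebpa was called lower with LAMZ at both days, and Pparg, Cebpb and Cebpd were called at neither day.

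**Figure D1:**
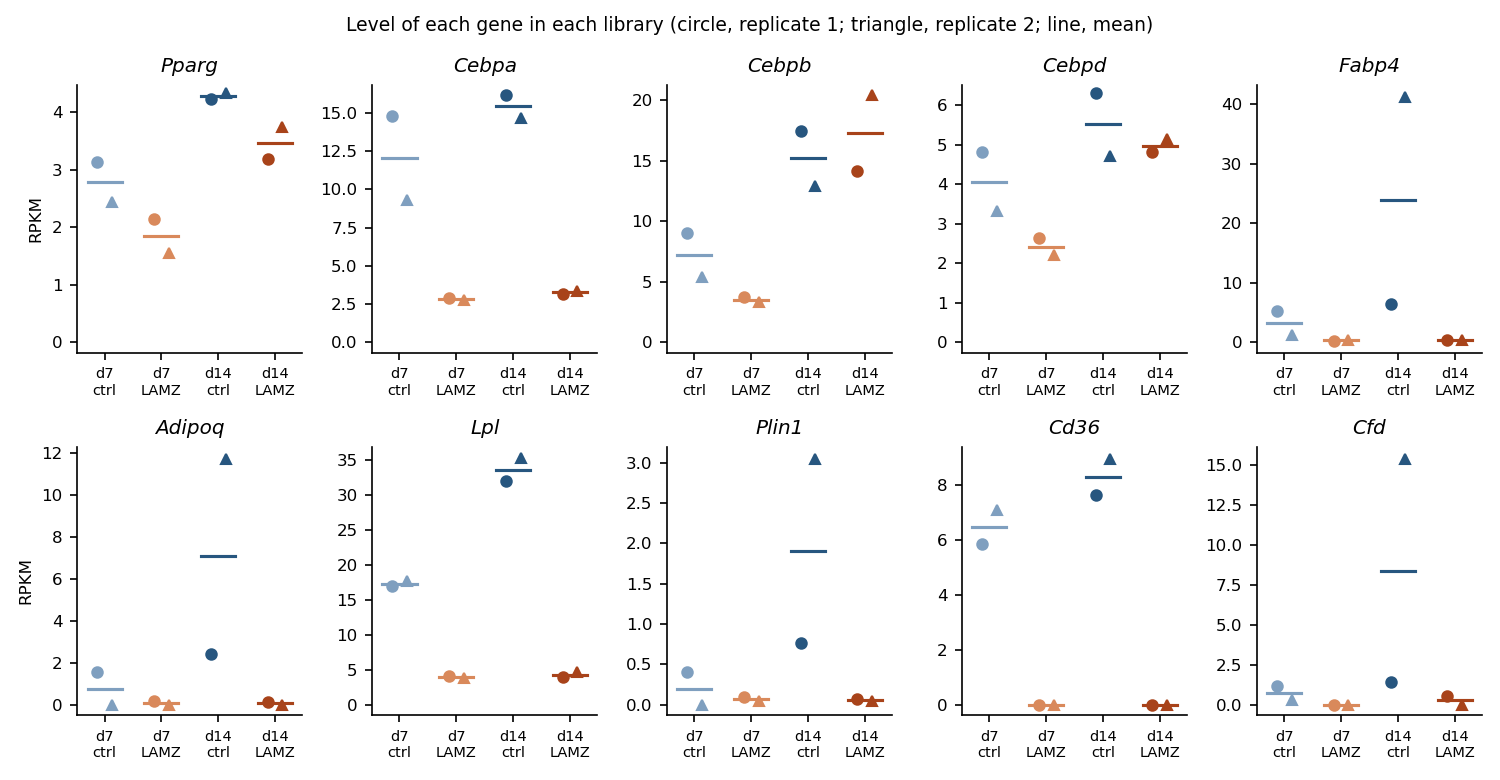
RPKM (vertical axis, from 0 in each panel) of the 10 genes in the 8 libraries, grouped by day and culture on the horizontal axis, with circles for replicate 1, triangles for replicate 2 and lines for group means. Lpl, Cd36 and Cebpa sit high in all 4 control libraries, whereas Fabp4, Adipoq, Plin1 and Cfd rise chiefly in day 14 control replicate 2 (Fabp4 at 41.2).

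Lpl (ENSMUSG00000015568, chr8:68880491-68907448 in GRCm38) had the highest mean level of the 10 in control culture at both days, although in day 14 control replicate 2 Fabp4 (41.2) was above it. Its RPKM was 17.0 and 17.6 in day 7 control, 4.06 and 3.83 in day 7 LAMZ, 31.9 and 35.3 in day 14 control and 3.90 and 4.66 in day 14 LAMZ. The control libraries lay above the LAMZ libraries at each day with no overlap, and the replicates stood close together. The mean was 4.38-fold lower with LAMZ at day 7 (difference −1.89 ± 0.12 (SE), adjusted p = 0.000132 by limma) and 7.84-fold lower at day 14 (−2.71 ± 0.12, adjusted p = 9.97e-06). Between 118 and 1167 reads stood behind each of these values.

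Cd36 (ENSMUSG00000002944, chr5:17781690-17888801) was read in every control library and in no LAMZ library. Control RPKM was 5.84 and 7.08 at day 7 and 7.63 and 8.93 at day 14, from 79, 88, 147 and 145 reads, and each of the 4 LAMZ libraries had 0 reads. A count of 0 allows up to 3 reads, an RPKM of at most 0.143 to 0.196 in these libraries, for counting error only. With 3 reads set in each LAMZ library, the control mean exceeded the LAMZ mean by 36.2-fold at day 7 and by 52.7-fold at day 14. These are lower bounds on the fall of the group means, not of single libraries. The fitted differences of −2.89 ± 0.15 (adjusted p = 5.83e-05) and −3.21 ± 0.15 (adjusted p = 1.37e-05) depend on the added value of 1 and are no measure of that fold.

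Cebpa (ENSMUSG00000034957, chr7:35119293-35121928) was the only one of the 4 transcription factors called lower with LAMZ, and the factors were not tested against each other. Its RPKM was 14.8 and 9.31 in day 7 control against 2.94 and 2.77 with LAMZ, and 16.2 and 14.7 in day 14 control against 3.19 and 3.34. The groups did not overlap at either day, and the LAMZ libraries of both days kept to a narrow band. The mean was 4.23-fold lower at day 7 (−1.73 ± 0.19, adjusted p = 0.00129 by limma) and 4.73-fold lower at day 14 (−1.94 ± 0.19, adjusted p = 0.000384). Unlike Cd36, it stayed measurable with LAMZ, at 33 to 49 reads in a library.

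The macrophage markers were also lower with LAMZ. At day 7, 14 of the 17 macrophage markers tested were called lower with LAMZ (8.49% of all tested genes were), with a median difference of −3.42 against −0.08 over all tested genes. At day 14, 16 were called lower (16% of all tested genes were), with a median of −4.46 against −0.15. Apart from Lyz2, and Cd68 in day 14 LAMZ replicate 2, the markers were below an RPKM of 1 in the LAMZ libraries. Such markers passed the filter through control libraries and could hardly be called higher, so these counts only describe the list. In all 4 LAMZ libraries 7 of the markers were at 0 (the complement genes C1qa, C1qb and C1qc, and Tyrobp, Ctss, Cd52 and Laptm5). Adgre1, which encodes F4/80, held 0 to 2 reads against 113 to 474 in control. The part of these markers in the differences of Lpl, Cd36 and Cebpa was not tested. Within control culture, the markers summed to 482 and 635 in replicates 1 and 2 of day 7 and to 1213 and 1229 in those of day 14. In the same order, the RPKM of Cebpa was 14.8, 9.31, 16.2 and 14.7. That of Cd36 was 5.84, 7.08, 7.63 and 8.93, and that of Lpl was 17.0, 17.6, 31.9 and 35.3. From day 7 to day 14 the mean of Cebpa and that of Cd36 each differed by 1.28-fold in control, neither called, while that of Lpl was 1.94-fold higher.

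Fabp4, Adipoq, Plin1 and Cfd formed another pattern, with large differences between the 2 libraries of control culture. Fabp4 (ENSMUSG00000062515, chr3:10204088-10208576) had an RPKM of 5.33 and 1.29 in day 7 control and 6.44 and 41.2 in day 14 control, against 0.262, 0.428, 0.383 and 0.457 in the LAMZ libraries. Every control library lay above every LAMZ library, where only 1 or 2 reads were counted. The lowest control library, day 7 replicate 2, held only 4 reads. At day 7 the difference was −1.50 ± 0.74 (adjusted p = 0.233 by limma, not called), and at day 14 it was −3.64 ± 0.74 (adjusted p = 0.0104). At day 14 the pooled reads, 198 in control and 4 with LAMZ, gave a 53.6-fold ratio at equal depth, with an exact 95% interval of 20.6 to 199 for counting error only. With either day 14 LAMZ library left out, Fabp4 was no longer called (adjusted p = 0.0566 without replicate 1 and 0.0565 without replicate 2).

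Adipoq (ENSMUSG00000022878, chr16:23146536-23158028) was counted at 8 and 0 reads in day 7 control and at 18 and 73 reads in day 14 control. The LAMZ libraries held 1 and 0 reads at each day. In RPKM, day 14 control stood at 2.43 and 11.7 and day 14 LAMZ at 0.124 and 0, with no overlap, while at day 7 the groups overlapped at 0. The difference was −2.64 ± 0.61 at day 14 (adjusted p = 0.018 by limma) and −0.56 ± 0.61 at day 7 (adjusted p = 0.604, not called). Without day 14 control replicate 2, the day 14 difference was −1.69 and was not called (adjusted p = 0.0916), nor was it without either day 14 LAMZ library (0.0721 and 0.0915) or with no filter on low values (0.0648).

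Cfd (ENSMUSG00000061780, chr10:79890853-79892655) had 4 and 1 reads in day 7 control, 7 and 64 in day 14 control, 0 and 0 in day 7 LAMZ and 3 and 0 in day 14 LAMZ. Its RPKM in day 14 control was therefore 1.41 and 15.4. The day 14 difference of −2.33 ± 0.75 was not called (adjusted p = 0.0599 by limma), and without day 14 control replicate 1 it was −3.71 (adjusted p = 0.0031). At day 7 the difference was −0.75 ± 0.75 (adjusted p = 0.569). Pooled reads at day 14 were 25.6-fold higher in control, with an exact 95% interval of 8.42 to 127 that covers counting error only.

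Plin1 (ENSMUSG00000030546, chr7:79720218-79732903) reached an RPKM of 1 in day 14 control replicate 2 alone and was not tested. Its reads were 7 and 0 in day 7 control, 19 and 64 in day 14 control, 2 and 1 in day 7 LAMZ and 2 and 1 in day 14 LAMZ. At day 14 the control libraries (RPKM of 0.761 and 3.05) lay above the LAMZ libraries (0.0738 and 0.0441), whereas at day 7 they overlapped. The pooled day 14 ratio of 30.0 had an exact 95% interval of 9.91 to 148 for counting error only.

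The 4 genes shared the library in which they were high. Day 14 control replicate 2 exceeded replicate 1 by 6.40-fold for Fabp4, 4.82-fold for Adipoq, 4.001-fold for Plin1 and 10.9-fold for Cfd. On the log2(RPKM + 1) scale, a difference between these libraries as far in that direction as that of Cfd was seen in 6 of the 12514 tested genes, as that of Fabp4 in 10 and as that of Adipoq in 24. At day 7 the order was the other way, with replicate 1 above replicate 2 by 4.13-fold for Fabp4 and 3.67-fold for Cfd, and with all 8 Adipoq reads and all 7 Plin1 reads in replicate 1. Lpl and Cd36 differed little between the same libraries, by 1.11-fold and 1.17-fold at day 14.

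The summed RPKM of the macrophage markers was 1213 in replicate 1 and 1229 in replicate 2 of day 14 control, of which Lyz2 alone gave 695 and 789. Lyz2, C1qb, Csf1r and Fcer1g were higher in replicate 2, and the other measured macrophage markers were higher in replicate 1. In day 7 control the sum was 482 in replicate 1, where Fabp4 was the higher, and 635 in replicate 2. The part of these markers in the second pattern was not tested. The 10 further markers of mature fat cells summed to an RPKM of 4.34 to 4.58 in day 7 control and 2.34 to 2.81 with LAMZ. At day 14 they summed to 7.59 to 9.23 in control and 4.48 to 6.22 with LAMZ. Singly they did not move alike. The droplet protein gene Cidec had 4 and 10 reads in day 14 control and 0 and 1 with LAMZ. Pck1, used for glycerol synthesis in fat, had 4 and 14 reads against 0 and 0. Adrb3 had 7 and 5 reads against 2 and 0, Aqp7 3 and 4 against 0 and 1, and Acvr1c 1 and 6 against 0 and 3. Leptin (Lep) was at 0 to 3 reads in every library and resistin (Retn) at 0 or 1. Lipe had an RPKM of 1.46 and 1.92 in day 14 control and 0.408 and 0.870 with LAMZ (difference −0.72, adjusted p = 0.0538 by limma). The droplet coat gene Plin4 had an RPKM of 2.87 and 2.95 in day 14 control and 2.05 and 2.98 with LAMZ, and the insulin-regulated glucose transporter Slc2a4 had 1.87 and 1.14 against 1.87 and 2.12, neither with an excess in control replicate 2 of the size seen above. Of this list 3 genes were tested (Plin4, Slc2a4 and the lipase gene Lipe), and limma called 0 for LAMZ at either day, with 0 higher and 2 lower at an unadjusted p below 0.05 at day 7 and 0 higher and 1 lower at day 14.

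**Figure D2:**
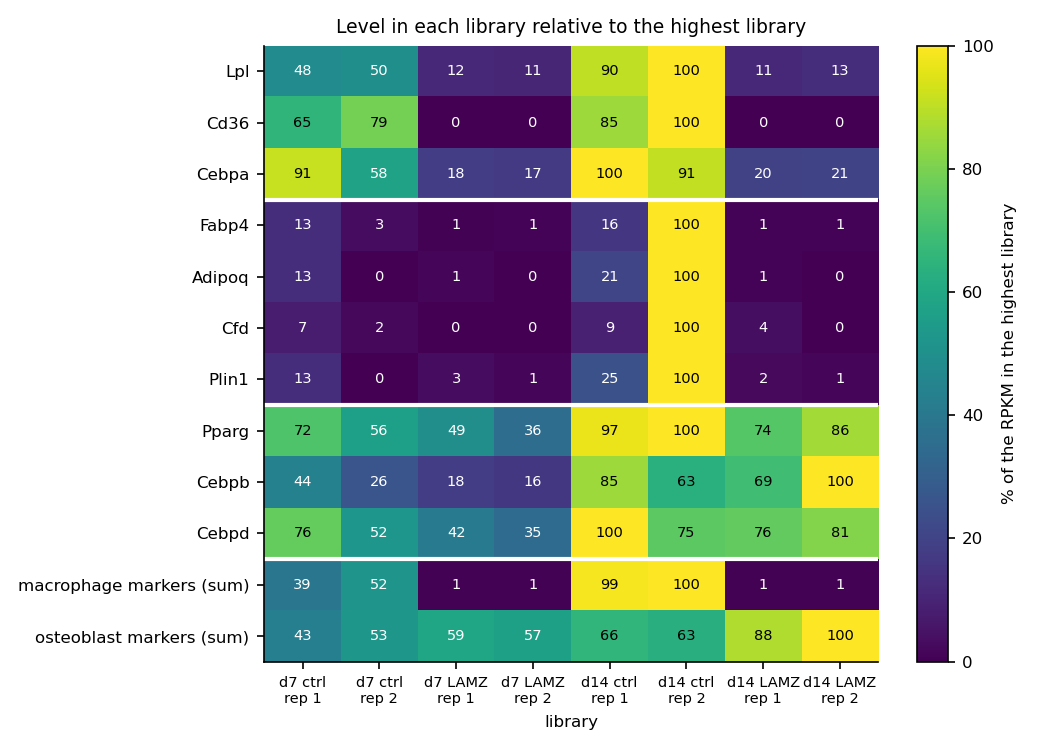
Level of each gene in each library as a percent of its highest library (colour and printed number), with libraries on the horizontal axis and, below the 10 genes, the summed RPKM of macrophage and of osteoblast markers. Lpl and Cd36 are nearly even within a group, while Fabp4, Adipoq, Cfd and Plin1 reach 100 in day 14 control replicate 2 and at most 25.0 elsewhere.

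Pparg (ENSMUSG00000000440, chr6:115360951-115490399), the nuclear receptor that commits cells to the fat lineage, was at a low level in every library. Its RPKM was 3.14 and 2.44 in day 7 control, 2.14 and 1.56 in day 7 LAMZ, 4.23 and 4.34 in day 14 control and 3.19 and 3.75 in day 14 LAMZ, from 24 to 67 reads. The LAMZ libraries lay below the control libraries at each day without overlap, yet neither difference was called. It was −0.41 ± 0.16 at day 7 (adjusted p = 0.134 by limma, 95% interval −0.78 to −0.05) and −0.24 ± 0.16 at day 14 (adjusted p = 0.305, −0.61 to 0.12). With the libraries rescaled to the same sum of values it was called lower at both days (adjusted p = 0.0235 and 0.0232), a scaling that also moved the median of all tested genes to −0.31 and −0.43. The files hold 1 value for the gene, so the transcripts from its 3 starts could not be told apart.

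Cebpb (ENSMUSG00000056501, chr2:167688915-167690418) had an RPKM of 8.99 and 5.38 in day 7 control, 3.74 and 3.32 in day 7 LAMZ, 17.5 and 12.9 in day 14 control and 14.1 and 20.4 in day 14 LAMZ. The groups were apart at day 7 and overlapped at day 14. The difference was −0.82 ± 0.25 at day 7 (adjusted p = 0.0745 by limma) and 0.17 ± 0.25 at day 14 (adjusted p = 0.674). The day 7 difference was called lower with a mean RPKM of at least 5 required (adjusted p = 0.0458), with libraries rescaled to the same sum (0.0145) and without day 7 control replicate 2 (0.0379). The day 14 difference changed sign without day 14 control replicate 2 (−0.04), without day 14 LAMZ replicate 2 (−0.08) and with rescaling (−0.18).

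Cebpd (ENSMUSG00000071637, chr16:15887286-15891031) had an RPKM of 4.81 and 3.31 in day 7 control against 2.63 and 2.20 with LAMZ, and of 6.31 and 4.72 in day 14 control against 4.81 and 5.14. As with Cebpb, the groups stood apart at day 7 and overlapped at day 14. The differences of −0.55 ± 0.18 at day 7 (adjusted p = 0.09 by limma) and −0.12 ± 0.18 at day 14 (adjusted p = 0.686) were not called. The day 7 difference was called with libraries rescaled to the same sum (−0.77, adjusted p = 0.0143). The day 14 difference changed sign with libraries centred on the median (0.07), with quantile normalization (0.06) and without day 14 control replicate 1 (0.06).

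**Figure D3:**
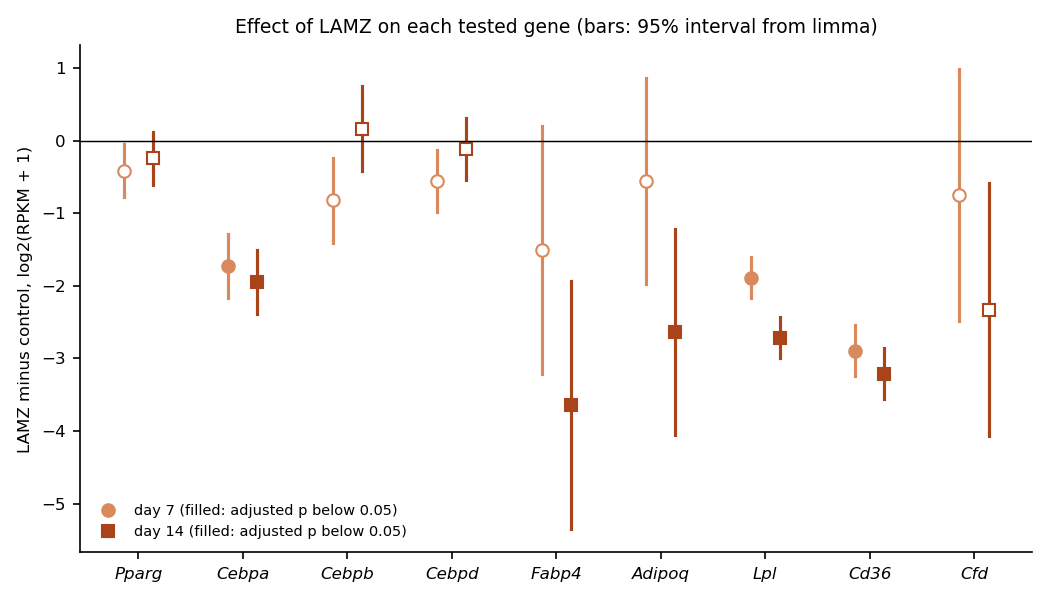
LAMZ minus control on the log2(RPKM + 1) scale (vertical axis) for the 9 tested genes (horizontal axis) at day 7 (circles) and day 14 (squares), with 95% intervals from limma as bars and filled symbols for an adjusted p below 0.05. Lpl, Cd36 and Cebpa are below 0 with narrow intervals at both days, and the intervals of Fabp4, Adipoq and Cfd are the widest.

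The order of the levels was not the same in each group. In day 7 control it ran from Lpl (mean RPKM 17.3 ± 0.5 (SD, n = 2)) through Cebpa (12.1 ± 3.9), Cebpb (7.18 ± 2.56), Cd36 (6.46 ± 0.88) and Cebpd (4.06 ± 1.06) to Fabp4 (3.31 ± 2.86) and Pparg (2.79 ± 0.49), with Adipoq, Cfd and Plin1 below 1. The values of Cebpb and Cd36 overlapped, as did those of Cebpd and Fabp4 and of Fabp4 and Pparg, so the order of these neighbours is not settled. Levels were not tested between genes in any group. In day 14 control the unevenness of Fabp4, Cfd and Adipoq made each neighbour overlap from Lpl (33.6 ± 2.4) down to Cebpd (5.52 ± 1.12). In day 7 LAMZ, Lpl was again first (3.95 ± 0.16), followed without overlap by Cebpb (3.53 ± 0.30), Cebpa (2.85 ± 0.12), Cebpd (2.42 ± 0.30) and Pparg (1.85 ± 0.41). In day 14 LAMZ, Cebpb was highest (17.3 ± 4.4), followed without overlap by Cebpd (4.97 ± 0.24), Lpl (4.28 ± 0.54) and Pparg (3.47 ± 0.39), and the last overlapped with Cebpa (3.26 ± 0.11).

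Between day 7 and day 14, Lpl rose in control culture and Pparg, Cebpb and Cebpd rose in LAMZ culture. In control culture 1 of the 9 tested genes was called higher (2.46% of all tested genes) and 0 lower (2.4% of all), with 6 higher and 0 lower at an unadjusted p below 0.05. In LAMZ culture 3 were higher (5.1% of all) and 0 lower (9.26% of all), with 3 higher and 0 lower at an unadjusted p below 0.05. These comparisons share their libraries with those of LAMZ against control.

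The mean of Lpl in control culture was 1.94-fold higher at day 14 (0.92 ± 0.12, adjusted p = 0.0103 by limma), and all day 14 libraries lay above all day 7 libraries. This call was lost without day 7 control replicate 1 (adjusted p = 0.052), without day 14 control replicate 1 (0.0568) or replicate 2 (0.0584), and with the 4 control libraries fitted alone (0.118). In LAMZ culture Lpl differed by 0.09 ± 0.12 (adjusted p = 0.652). Among the macrophage markers, 13 of 17 were called higher at day 14 in control culture (2.46% of all tested genes were), with a median difference of 1.20.

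Cebpb in LAMZ culture was 4.90-fold higher at day 14 (1.99 ± 0.25, adjusted p = 0.00296 by limma), and it was called under all alternatives tried. Pparg was 1.87-fold higher (0.65 ± 0.16, adjusted p = 0.0313) and Cebpd 2.06-fold higher (0.81 ± 0.18, adjusted p = 0.0249), with the days apart in each case. Both lost their call when any LAMZ library was left out (adjusted p of 0.0597 to 0.176 for Pparg and 0.0816 to 0.145 for Cebpd) and with no filter (0.0985 and 0.0817). In control culture the same genes differed by 1.01 ± 0.25 (Cebpb, adjusted p = 0.0662), 0.48 ± 0.16 (Pparg, 0.126) and 0.37 ± 0.18 (Cebpd, 0.29).

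Fabp4, Adipoq and Cfd had higher day 14 means in control culture, by 7.20-fold, 9.19-fold and 11.5-fold, yet none was called (adjusted p of 0.132, 0.101 and 0.193 by limma) with so wide a spread between the replicates. Without day 14 control replicate 1, Cfd was called higher (3.28, adjusted p = 0.0414). Cebpa and Cd36 differed by 0.36 ± 0.19 (adjusted p = 0.315) and 0.32 ± 0.15 (adjusted p = 0.275).

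Whether the effect of LAMZ differed between the days was tested directly, and 0 of the 9 genes were called (0.623% of all tested genes were), with 1 positive and 2 negative at an unadjusted p below 0.05. The smallest adjusted p was that of Lpl, whose difference was larger at day 14 by −0.83 ± 0.17 (adjusted p = 0.0843 by limma). Lpl was called with an added value of 5 (adjusted p = 0.0383) and with a mean RPKM of at least 5 required (0.0473). The other members at an unadjusted p below 0.05 were Cebpb (0.99 ± 0.36, adjusted p = 0.234) and Adipoq (−2.08 ± 0.87, adjusted p = 0.29). The larger number of genes lowered at day 14 is therefore not shown to be a change of the LAMZ effect with time.

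Across the 8 libraries, which share their groups, the members were alike to different degrees, and the sets described above were not separate. On log2(RPKM + 1), Pearson's r was 0.98 between Fabp4 and Adipoq, 0.965 between Adipoq and Cfd and 0.955 between Fabp4 and Cfd. It was 0.973 between Cebpa and Lpl, 0.978 between Lpl and Cd36 and 0.973 between Cebpa and Cd36. Among Pparg, Cebpb and Cebpd it was 0.945 between Cebpb and Cebpd, 0.918 between Pparg and Cebpb and 0.941 between Pparg and Cebpd, whereas Pparg and Cd36 had 0.499 and Cebpb and Cd36 had 0.213. Between the sets of Lpl and of Fabp4 it was also high, at 0.875 between Lpl and Fabp4, 0.837 between Cebpa and Fabp4, 0.804 between Cd36 and Fabp4 and 0.793 between Lpl and Adipoq.

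Among all other tested genes, the patterns most like Cd36 over the 8 libraries were those of Slfn5 (r = 0.9989), the macrophage lysozyme Lyz2 (0.9976) and Cmtm3 (0.9971). For Lpl they were Cd34 (0.9979), the Fc receptor Fcgr3 (0.9978) and Pdgfd (0.9963), and for Cebpa they were Kazn (0.9951), Col5a3 (0.9918) and Aldh3b1 (0.9915). Fabp4 was most like Steap2 (0.9855), Parvb (0.9847) and Snx1 (0.9773), Adipoq like Parvb (0.9759), Usp35 (0.9733) and Snx1 (0.9726), and Cfd like Akap8l (0.9482), Mr1 (0.946) and the fat cell lipase Pnpla2 (0.945). Pparg was most like AL591207.3 (0.9872), Fibp (0.9718) and Dmpk (0.967), Cebpb like Ftl1 (0.9896), Actn3 (0.9877) and Jund (0.98), and Cebpd like Plekha7 (0.9767), A930002H24Rik (0.9714) and Slc35e4 (0.9652). These values describe likeness over libraries that differ by group, and no test was made.

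Among the other genes of adipogenesis, calls for LAMZ went in both directions. Of all tested genes, 8.49% were called lower and 4.35% higher at day 7, and 16% lower and 6.96% higher at day 14. The counts of this and the following lists were not tested against those shares and only describe each list. Of 13 further adipogenic transcription factors tested, 2 were lower and 1 higher at day 7, and 5 were lower and 2 higher at day 14, with a median difference of −0.09 at day 14 against −0.15 over all tested genes. Ebf1, a factor needed for fat cell formation, fell from a mean RPKM of 9.32 ± 0.66 to 2.70 ± 0.23 (SD, n = 2) at day 7 and from 13.4 ± 1.0 to 2.53 ± 0.13 at day 14 (adjusted p = 0.00035 and 3.63e-05 by limma). Klf4, an early inducer of Cebpb, rose from 12.3 ± 3.5 to 25.4 ± 2.9 at day 7 and from 15.2 ± 1.3 to 25.8 ± 1.7 at day 14 (adjusted p = 0.012 and 0.0265). Rxra, the partner of PPARγ, was lower at day 14, at 17.0 ± 1.3 against 22.9 ± 0.8 (adjusted p = 0.045), a call kept under 6 of 19 alternatives. The related Ppard and Rxrb belong to a list of PPAR, C/EBP and RXR relatives in which 0 of 4 tested genes were called at either day, and limma gave 0 at an unadjusted p below 0.05.

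Among 9 tested inhibitors of adipogenesis, 3 were lower and 1 higher at day 7 and 4 were lower and 2 higher at day 14. Dlk1 (preadipocyte factor Pref-1) fell from 9.79 ± 0.35 to 3.78 ± 0.07 at day 7 and from 6.94 ± 2.34 to 3.01 ± 0.35 at day 14 (adjusted p = 0.00744 and 0.00998 by limma). Wnt10b, a Wnt ligand that holds back fat cell formation, rose from 3.95 ± 1.41 to 7.98 ± 0.36 and from 4.37 ± 0.14 to 13.7 ± 1.5 (adjusted p = 0.0211 and 0.00156). The repressors Klf3 (differences of −0.52 and −0.67) and Nr2f2 (−0.76 and −0.84) were lower at both days. Ddit3 (CHOP), which blocks C/EBP factors by dimerizing with them, was called at day 14 alone, at 53.6 ± 9.2 against 14.9 ± 0.1 in control (adjusted p = 0.00249). Zfp521 was lower at day 14 at 7.83 ± 0.94 against 14.4 ± 0.8 (adjusted p = 0.00381).

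Of 10 tested genes for lipid droplet coats and lipases, 2 were lower and 0 higher at day 7 (4 lower and 1 higher at an unadjusted p below 0.05), and 3 were lower and 1 higher at day 14. Plin2, the coat found on droplets of most cell types, fell from 13.9 ± 0.5 to 6.81 ± 1.13 at day 7 and from 19.3 ± 2.2 to 7.21 ± 0.11 at day 14 (adjusted p = 0.0048 and 0.000605 by limma). Plin3 was lower by 0.61 and 0.51 on the log2 scale, and G0s2, an inhibitor of the lipase ATGL, was not called.

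Of 15 tested genes for fatty acid and triglyceride synthesis, 0 were lower and 2 higher at day 7 (1 lower and 2 higher at an unadjusted p below 0.05), and 3 were lower and 0 higher at day 14 (4 lower and 1 higher at an unadjusted p below 0.05). Scd2, a desaturase, rose with LAMZ at day 7 from 143 ± 8 to 237 ± 2 (adjusted p = 0.00469 by limma), while Acly, which makes cytosolic acetyl-CoA, was not called. For uptake and binding of fatty acids, 2 of 15 were lower and 2 higher at day 7 and 3 were lower and 3 higher at day 14. The transporter Slc27a1 was lower (−0.61 and −1.08) and Slc27a3 higher (0.85 and 0.79) at both days. The lipoprotein receptor Vldlr rose from 4.06 ± 1.16 to 11.6 ± 0.3 and from 6.61 ± 0.66 to 16.9 ± 1.0 (adjusted p = 0.00226 and 0.00176), and Cav1 (caveolin 1) was lower at day 14 (−1.11, adjusted p = 0.012). Lmf2, a factor for lipase maturation, was at 15.0 ± 0.9 and 15.0 ± 2.1 in the day 14 groups (adjusted p = 0.979).

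**Figure D4:**
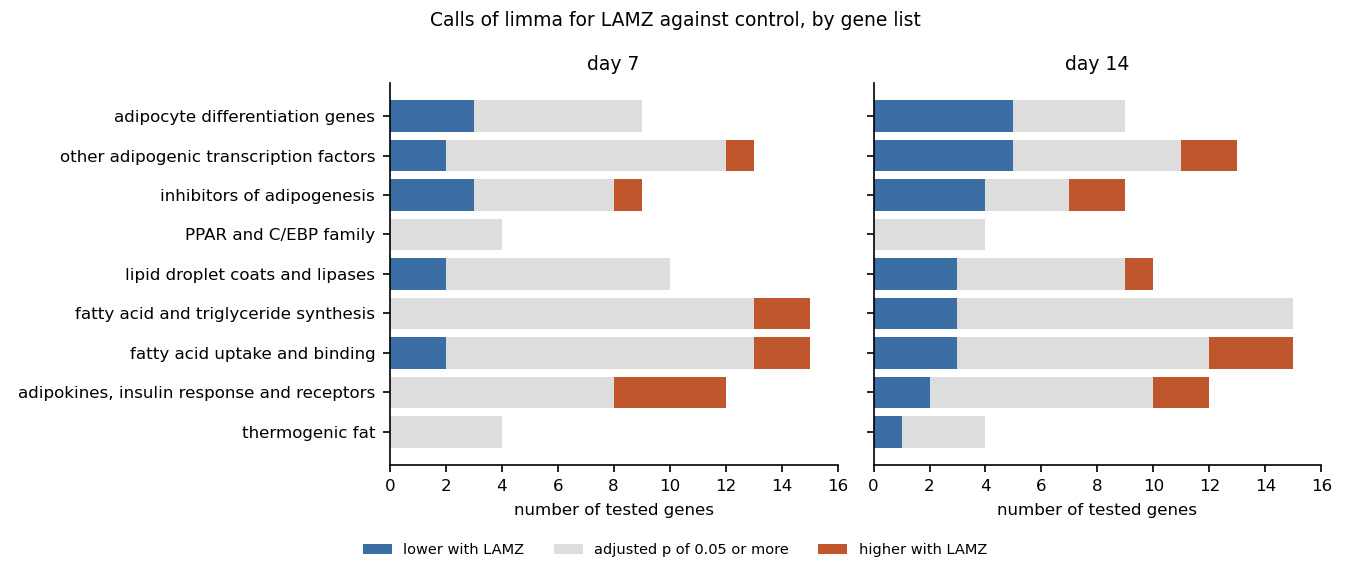
Number of tested genes (horizontal axis) of each list (vertical axis) that limma called lower (blue) or higher (orange) with LAMZ or did not call (grey), at day 7 (left) and day 14 (right). The list of the 10 adipocyte differentiation genes holds 3 lower calls at day 7 and 5 at day 14, and 4 of its 9 tested genes passed the filter through control libraries alone and so could hardly be called higher. Of all tested genes, 8.49% were lower and 4.35% higher at day 7, and 16% lower and 6.96% higher at day 14. The lists were not tested against each other or against these shares.

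Among 12 tested adipokines, receptors and genes of the insulin response, 4 were higher and 0 lower at day 7 (5 higher and 1 lower at an unadjusted p below 0.05), and 2 were higher and 2 lower at day 14. The glucose transporter Slc2a1 rose from 9.62 ± 1.41 to 25.4 ± 4.0 and from 19.9 ± 1.3 to 39.5 ± 3.3 (adjusted p = 0.0017 and 0.00383 by limma). Irs1, the insulin receptor substrate, was higher at day 7 (0.42, adjusted p = 0.0344) and lower at day 14 (−0.44, adjusted p = 0.0186), and the difference between the days was not called (adjusted p = 0.0527). The adipokine gene Apln differed between the days, rising from 3.19 ± 0.62 to 10.8 ± 1.0 at day 7 and standing at 4.16 ± 0.78 and 4.12 ± 0.43 at day 14. Of 4 tested genes of thermogenic fat, 0 were called at day 7 (0 at an unadjusted p below 0.05) and 1, Dio2, was lower at day 14 (−1.07, adjusted p = 0.0161), while the muscle-type cytochrome oxidase subunits Cox8b and Cox7a1 were not called for LAMZ.

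The named calls of these other lists kept their direction under all alternatives. Those of Ebf1, Plin2, Vldlr and Slc2a1 at both days were called under all 19, as were Apln and Scd2 at day 7 and Wnt10b, Klf3, Slc27a3, Ddit3 and Zfp521 at day 14. The weakest were Slc27a1 at day 7, called under 6 of 18, and Rxra at day 14 and Irs1 at day 7, called under 6 and 8 of 19. Each of those 3 was lost when any library of its own comparison was left out, with an adjusted p of up to 0.217 for Slc27a1, 0.201 for Rxra and 0.41 for Irs1 over all alternatives. The Klf3, Wnt10b, Nr2f2 and Plin3 calls of day 7 were lost without either day 7 LAMZ library and without day 7 control replicate 1 (adjusted p of up to 0.16, 0.125, 0.147 and 0.116 over all alternatives), and those of Klf4, Plin3 and Irs1 at day 14 when any of the 4 libraries of that day was left out (up to 0.153, 0.103 and 0.113 over all alternatives). Without day 7 LAMZ replicate 1, Klf4 (up to 0.097), Dlk1 (0.0605) and Slc27a3 (0.0533) were not called at day 7, and without day 14 LAMZ replicate 1 neither were Dlk1 (0.0652) and Nr2f2 (up to 0.0685) at day 14. Nr2f2 at day 14 was also lost without day 14 control replicate 2. Cav1 lost its call without replicate 2 of either day 14 group (up to 0.0779).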

How the data were processed

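RNA-seq of 8 libraries (2 in each of 4 groups taken from the sample labels) was used. The value column of day 7 LAMZ replicate 1 has a heading unlike its sample title, and the library was assigned by its label. The authors sequenced on an Ion Proton and assigned reads with CLC Genomics Workbench, and they deposited RPKM per gene symbol for each library, with no scaling between libraries stated. The submitters' processing notes give mm10. Of 51826 entries a library, 4 with repeated symbols were dropped. Mapped reads were estimated as the number that turns low values of genes with 1 exon into whole reads (within 0.02, up to 10 reads), with 93.4% to 95.4% of values whole in each library. For Fabp4 and Lpl, the length giving whole reads was 896 and 6810 bases, and the other members matched the summed exons of GENCODE M21 (GRCm38). limma 3.58.1 (R 4.3.3) was fitted with a trend on log2(RPKM + 1) in the 4 groups together, with 4 residual degrees of freedom, Benjamini-Hochberg adjustment over 12514 genes and no covariate. Scripts were tested on simulated data. Intervals and floors cover counting error only, since PCR reads are not independent molecules. The members and lists were chosen with earlier results of these data known. Named in the text are all 10 members, from the other lists genes called for LAMZ at both days or for the difference between days and the 2 with the highest mean RPKM of each list, and the 3 genes most like each tested member. Dio2 and the markers of other cell types, and the genes Plin4, Lipe, Slc2a4, Cidec, Pck1, Lep, Retn, Adrb3, Aqp7 and Acvr1c, were named after their values were seen. The alternatives tried were other added values (0.1 and 5), filters and scalings, replicate blocks, the 4 libraries of a comparison alone, no trend and each library left out. Itgam, a macrophage marker, was not analysed here.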

Additional observations from a re-analysis of the deposited data

Results flagged for a closer look

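Apln was the only gene of the adipocyte lists outside the marker lists whose LAMZ effect differed between the days by limma's test of the difference, with a value of −1.50 (adjusted p = 0.0396). LAMZ raised Apln by 1.49 at day 7 (adjusted p = 0.00125) and the difference at day 14 was −0.01 (adjusted p = 0.986). The difference between the days was called under 5 of 18 alternatives and kept its direction in all 18, and the call was lost when any of the 8 libraries was left out. Samples were not screened for outliers, since each group held 2 libraries.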

How the results depend on the processing

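At 2 libraries a group and 3463538 to 5832073 reads a library, calls near the threshold moved with single libraries. Of 734 values for single genes under the alternatives, 687 kept their direction and their side of the threshold. With libraries rescaled to the same sum, 6 of the 10 genes were lower at day 7 (Cebpb, Cebpd and Pparg in addition) and 3 rose in control culture. With a mean RPKM of at least 5 required, which leaves only Cebpa, Cebpb, Fabp4 and Lpl in the test, 3 were lower at day 14, 2 rose in control culture, 1 rose in LAMZ culture and 1 (Lpl) differed between the days, as 1 did with an added value of 5. With no filter 1 rose in LAMZ culture, and with the 4 control libraries fitted alone 0 rose. The cause was not tested, other than for the genes no longer tested.

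Leaving out each library gave 3 to 4 genes lower at day 7, 3 to 6 lower at day 14 (3 with either day 14 LAMZ library left out), 0 to 1 risen in control culture (0 without day 7 control replicate 1 or day 14 control replicate 2) and 1 to 3 risen in LAMZ culture (1 with any LAMZ library left out), and 0 to 0 for the difference between the days. Such a fit leaves 1 group with 1 library, which is assumed to vary like the others. Values that changed sign were the day 14 difference of Cebpb (−0.18 when rescaled, −0.084 to 0.42 with a library left out) and of Cebpd (0.074 when centred, 0.056 with quantile normalization, −0.29 to 0.061 with a library left out). With a library left out, so did the day 7 difference of Adipoq (−1.23 to 0.11), the day effect of Lpl in LAMZ culture (−0.013 to 0.19) and the difference between the days of Cebpa (−0.52 to 0.091), none of them called.

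The replicate numbers gave no sign of pairing, with correlations of deviations of −0.0166 and 0.0158 between the cultures at day 7 and day 14. With a replicate block, whether common to all groups or set within each day, the counts stayed at 3 lower at day 7, 5 lower at day 14 and 0 for the difference, and the common block left 1 and 3 for the days in control and LAMZ culture.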
